A study of Sorghum bicolor with 8 samples.

Results

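DHN1 (Sobic.009G116700) is a dehydrin gene of sorghum, examined here in prop roots, the aerial roots that leave the lower stem. It was picked by its identifier, so it is 1 gene out of 34129 listed. The name DHN1 and its description as a drought-induced dehydrin go with that choice; the table pairs its identifiers with no name. All 8 libraries came from cultivar BRS330, grown in soil with 1.5 L of water a day to day 60 and then held for 30 days at 0.45 L a day, which is 70% less. The ambient group (4 libraries) had air of 400 µmol per mol CO2 and the elevated group (4 libraries) had 800 µmol per mol. Both groups were therefore short of water, and no well-watered group was analysed, so induction of DHN1 by drought cannot be examined in these data. The labels do not say if libraries within a group are from different plants, so the deposited p-values may measure technical spread only.

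Dehydrins are small, very hydrophilic proteins that stay largely unfolded in solution, and they form a class of the late embryogenesis abundant (LEA) proteins. They carry a lysine-rich repeat, the K-segment, which can fold into a helix on membrane surfaces, and they are thought to protect membranes and enzymes as cells lose water. In grasses their transcripts accumulate in drying seeds and in tissues under drought, cold or salt, in many cases through the hormone abscisic acid. A dehydrin transcript is accordingly a common marker of water stress, and the comparison here asks whether its level in stressed prop roots differed between the CO2 concentrations.

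Levels are in FPKM, fragments scaled to transcript length and to library size. The authors deposited 1 value per gene and group, pooled over the 4 libraries, so no value of a single library, no SD and no overlap between groups can be given. DHN1 stood at 6.36 FPKM in ambient CO2 and at 4.17 FPKM in elevated CO2. Its transcript was thus present at a modest level in both groups and listed lower in elevated CO2. The difference in level was -2.18 FPKM, or 34.3% of the ambient value.

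With elevated set over ambient CO2, DHN1 had a log2 ratio of -0.61 in the authors' deposited table, a level 1.52-fold lower. This difference did not pass the authors' Cuffdiff test, with p = 0.133 and q = 0.456 in the deposited table, where a q under 0.05 counts as a call. By that rule 11.5% of the 16280 tested genes were called, 9.04% lower and 2.42% higher in elevated CO2. DHN1 was accordingly in none of the 4 subsets of significant genes that accompany the full table. A smaller p than that of DHN1 was listed for 4732 of the tested genes (29.1%). The deposited values give no interval for the difference, and a p that misses the threshold does not show that DHN1 had the same level in both groups.

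By level, DHN1 ranked 11622 of 34129 genes in ambient CO2, within the upper 34.1%. Its rank in elevated CO2 was 13216, within the upper 38.7%. DHN1 was therefore a gene of middling abundance among all listed genes in these drought-stressed roots. The median of the 25888 genes above 0 was 4.67 FPKM in ambient CO2, and DHN1 stood at 1.36 times this median. In elevated CO2 that median was 4.51 FPKM over 25786 genes, and DHN1 stood at 0.925 times it. DHN1 thus lay above the middle of the genes above 0 FPKM in ambient CO2 and below it in elevated CO2. That set includes very weakly expressed genes. Counted over the 16280 tested genes, which leaves out the weakly expressed ones, DHN1 ranked 11620 in ambient and 13211 in elevated CO2, in the lower part of the order in both groups. On chromosome 9 it ranked 979 of 2687 genes in ambient and 1129 in elevated CO2.

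**Figure D1:**
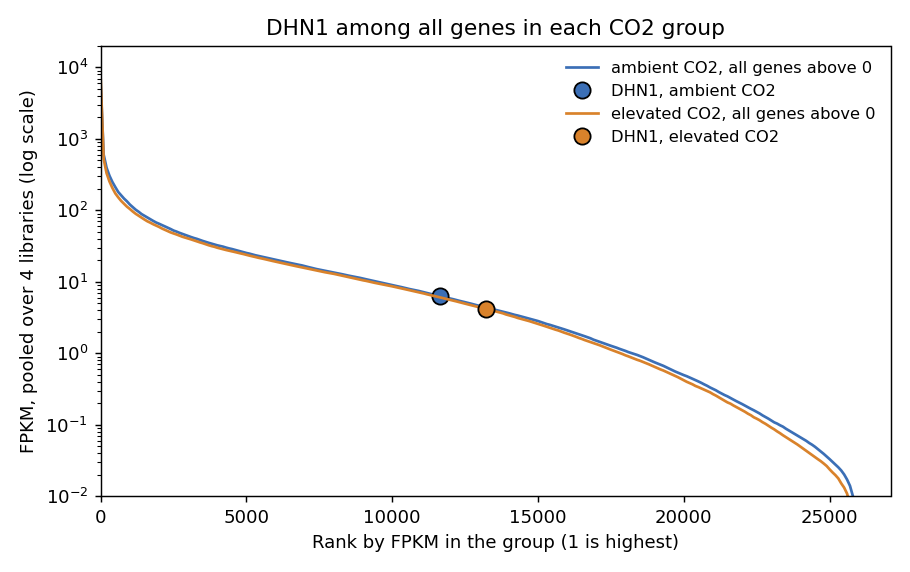
FPKM on a log scale against rank for all genes above 0 (lines, one per CO2 group), with DHN1 as a filled circle in each group. DHN1 sits in the flat middle stretch of both lines, at rank 11622 in ambient and 13216 in elevated CO2.

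A small change in FPKM moved a gene over many places in this stretch. DHN1 stood 1594 places lower in elevated than in ambient CO2. Between 4.17 and 6.36 FPKM lay 1798 genes in the ambient and 1783 genes in the elevated group. In ambient CO2 the gene directly above DHN1 was Sobic.002G264100 at 6.36 FPKM and the gene directly below was Sobic.004G113700, also at 6.36 FPKM when rounded. These neighbours in rank stood at 8.30 and 5.64 FPKM in elevated CO2, so genes that shared the ambient level of DHN1 went both ways. In elevated CO2 DHN1 lay between Sobic.007G084200 and Sobic.003G010200, both at 4.17 FPKM, whose ambient levels were 4.53 and 3.21 FPKM. None of these 4 genes was called in the authors' deposited table, where their q-values were 0.553, 0.889, 0.939 and 0.709. With 11.5% of all tested genes called, 0 of 4 is no result about these genes.

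Because summed FPKM differed between the groups (652743 in ambient and 579715 in elevated CO2), the level of DHN1 was also expressed as its part of that sum. DHN1 made up 9.74 parts in 1000000 of summed FPKM in ambient CO2 and 7.20 parts in elevated CO2. On that scale its log2 ratio was -0.44, against -0.61 on the deposited scale. The gene was lower in elevated CO2 on both scales, and no test accompanies the rescaled value.

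DHN1 was next set beside tested genes of like level, those whose geometric mean FPKM over the groups was within 1 log2 unit of that of DHN1 (5.15 FPKM). This class held 5950 genes between 2.57 and 10.3 FPKM, DHN1 included. Its median log2 ratio was 0.03, with quartiles of -0.25 and 0.27, so DHN1 at -0.61 lay below the lower quartile. A fall at least as large as the ratio of DHN1, called or not, was listed for 856 genes of the class (14.4%). A drop of at least 1594 places in rank was shown by 860 of them (14.5%). This largely restates the count by ratio, since ranks were taken from the same levels. The ratio of DHN1 was thus toward the low side of its level class without being at its edge, since the lowest 5% of the class lay at or under -1.46. Of the class, 10.5% were called, 8.39% lower and 2.13% higher in elevated CO2.

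**Figure D2:**
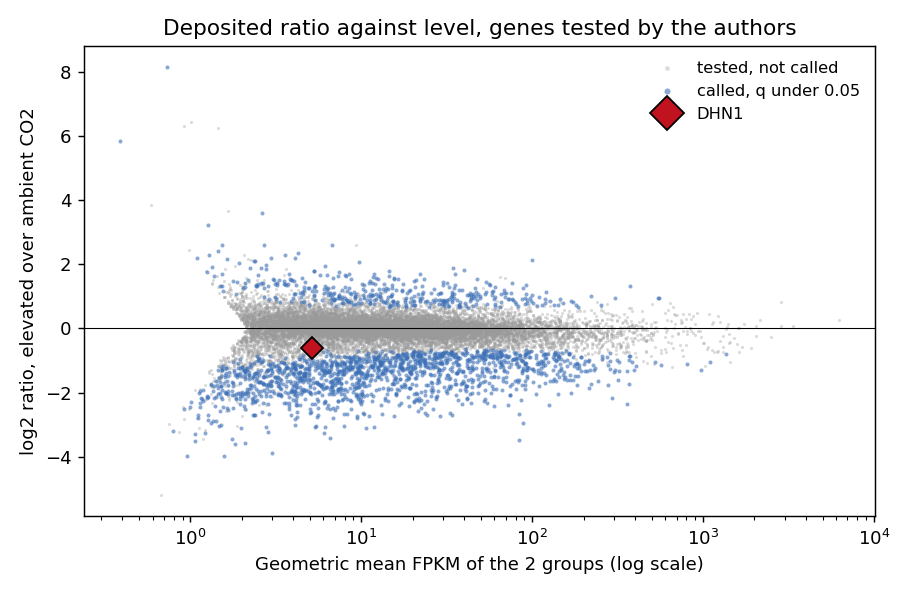
Log2 ratio of elevated over ambient CO2 against the geometric mean FPKM (log scale) for tested genes above 0 in both groups, with called genes in blue, others in grey and DHN1 as a red diamond. DHN1, at a ratio of -0.61 and a mean of 5.15 FPKM, lies inside the grey band of genes that were not called.

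The size of the ratio of DHN1 was below that of each called gene in the table. Among the 1865 genes called in the authors' deposited table, Sobic.010G219100 had the smallest absolute ratio, with a log2 ratio of -0.64 and q = 0.0466. Among genes of the level of DHN1 the smallest called ratio was -0.69, a 1.61-fold fall. In that class, absolute log2 ratios from 0.5 to 0.75, the range that holds DHN1, were called in 6 of 631 genes (0.951%). From 0.75 to 1 the authors' test called 69 of 330 genes (20.9%), and from 1 to 1.25 it called 136 of 221 (61.5%). A difference of the size listed for DHN1 was therefore one that the deposited test seldom called at this level of expression.

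The locus of DHN1 is also short. It was deposited as chromosome 9, 45915614 to 45916682, a span of 1068 bp, and no other gene shares that locus. Only 5.60% of tested genes had a span as short or shorter, and the median span of tested genes was 4033 bp. Exons, introns and UTRs are not annotated in the table, so the part of the span that is transcribed sequence was not analysed here. With the class narrowed to genes of like level whose span was within 1.5-fold of that of DHN1 (718 to 1602 bp), 601 genes remained, DHN1 included. Of these, 19.8% were called and 17.1% were called lower, shares above those of the whole level class. The median absolute log2 ratio was 0.50 in this class, against 0.26 over all genes of like level. A fall at least as large as the ratio of DHN1 was listed for 185 of the 601 (30.8%). Beside genes that match both its level and its span, DHN1 was thus closer to the middle of the spread.

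A call took a larger ratio among these short genes. The smallest called ratio in the class of like level and span was -0.99, a 1.99-fold fall in Sobic.005G079900 (q = 0.0301 in the authors' deposited table). Absolute log2 ratios from 0.5 to 0.75 were called by the authors' Cuffdiff test in 0 of 83 such genes, of which 5 had an unadjusted p under 0.05. For ratios from 0.75 to 1 it called 1 of 46, from 1 to 1.25 it called 13 of 47 (27.7%), and at 2 or more it called 29 of 29. No gene of this level and span with a change smaller than 1.99-fold was thus called, a mark set by 1 gene. This describes the listed genes, and why DHN1 was not called was not tested.

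**Figure D3:**
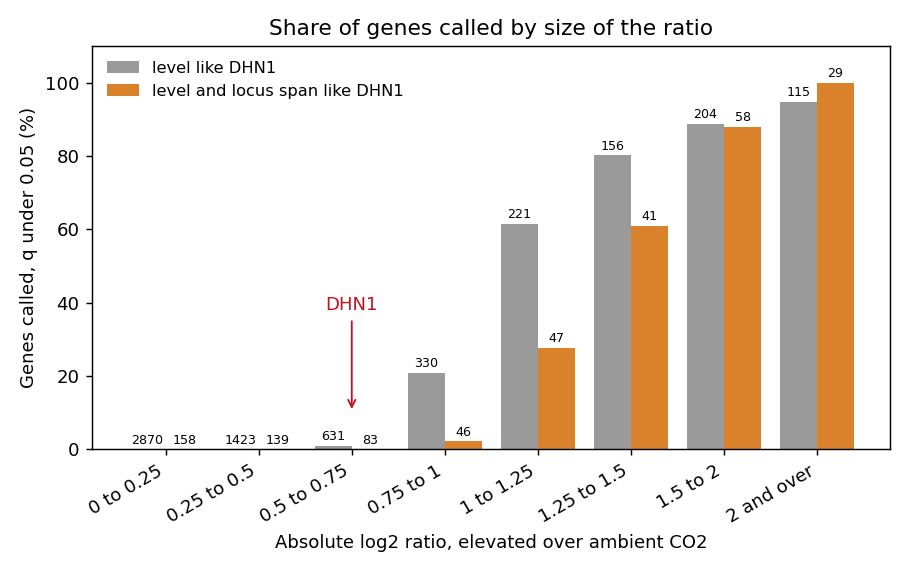
Percentage of genes called (q under 0.05) by absolute log2 ratio, for tested genes with a level like that of DHN1 (grey) and with both level and locus span like those of DHN1 (orange), with the number of genes above each bar. DHN1 falls in the class from 0.5 to 0.75, where 0.951% of grey and none of the 83 orange genes were called.

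The p-value of DHN1 was then read beside genes of like level, as defined above, and nearly the same ratio. Apart from DHN1, 224 genes of like level had a log2 ratio within 0.1 of -0.61. Their median p in the authors' deposited table was 0.0741, and 166 of them (74.1%) had a smaller p than the 0.133 of DHN1. Of the 224 genes, 2 were called (0.893%), and both belong to the 6 of 631 counted above. Only 29 of these genes were also of like span, and among those the median p was 0.167, with a range from 0.0527 to 0.350. Within this group 9 genes (31.0%) had a smaller p than DHN1 and 0 had an unadjusted p under 0.05. That 0 of the 29 were called by the authors' Cuffdiff test adds nothing new. They are part of the 83 genes of like level and span counted above, of which 0 were called. The 192 genes with a span more than 1.5 times that of DHN1 had a median p of 0.0647. Over DHN1 and the 224 genes, the Spearman correlation of span with p was -0.56 and that of mean level with p was -0.38. These are descriptions across genes of the same libraries, and the part of span or level in the p-value of DHN1 was not tested.

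**Figure D4:**
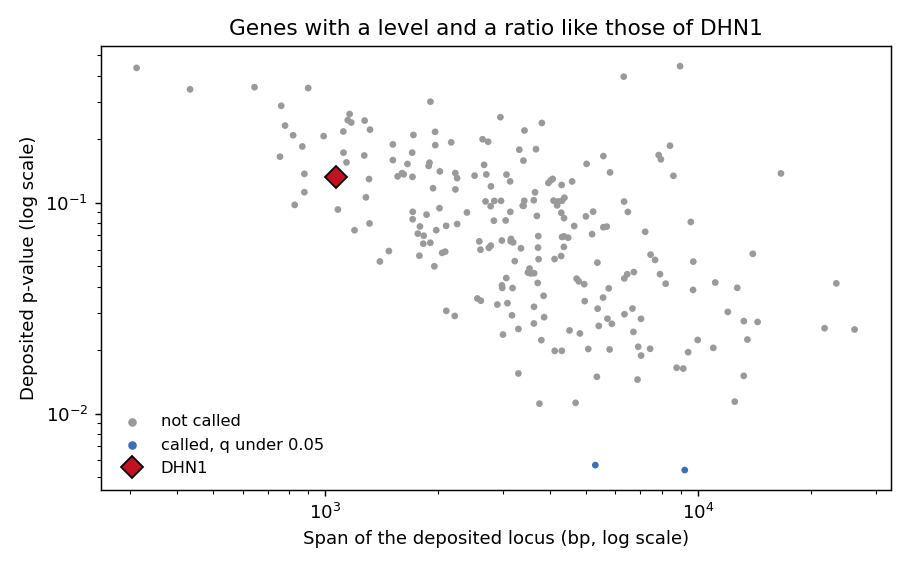
Deposited p-value against the span of the deposited locus, both on log scales, for 225 genes with a level and a log2 ratio like those of DHN1 (red diamond), with called genes in blue. DHN1, at 1068 bp and p = 0.133 in the authors' deposited table, lies among short loci with similar p. The 2 called genes have longer loci.

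The genes with the pattern most like DHN1 were taken as those nearest to it in log2 FPKM over the 2 group values, among 24740 other genes above 0 in both. With 2 points per gene this likeness says only that level and ratio were close, and nothing about shared function or control. Nearest was Sobic.003G284100 (chromosome 3, 61809613 to 61810481), which went from 6.26 FPKM in the ambient group to 4.16 FPKM in the elevated group, a distance of 0.02 log2 units. It is also a short locus, of 868 bp, and its deposited q was 0.553 in the authors' deposited table. Next came Sobic.001G413000, from 6.24 to 4.13 FPKM, and Sobic.003G122200, from 6.28 to 4.26 FPKM. Sobic.009G188100, which lies on chromosome 9 as DHN1 does, went from 6.48 to 4.26 FPKM. The last of them, Sobic.002G202600, went from 6.17 to 4.19 FPKM. The 5 were picked for a ratio like that of DHN1, and no called gene in the table had an absolute log2 ratio under 0.64. That none of the 5 was called by the authors' Cuffdiff test, with q between 0.160 and 0.553, followed from this choice. Of the 5, 2 had an unadjusted p under 0.05. In the authors' deposited table those were Sobic.001G413000 (p = 0.0282, locus of 7024 bp) and Sobic.009G188100 (p = 0.0459, locus of 7898 bp). Sobic.003G122200 had p = 0.102 in the authors' deposited table, also below the 0.133 of DHN1. The p-values of Sobic.003G284100 (0.185) and Sobic.002G202600 (0.178) in the authors' deposited table were above it, so nearly equal levels came with p-values on both sides of that of DHN1.

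Along the chromosome, DHN1 had a higher level than most of the 10 genes listed around it, 5 on each side. On the side of lower coordinates, none of the 5 genes was tested. The nearest of them, Sobic.009G116600, ends 8738 bp from DHN1 and had levels of 0.247 FPKM under ambient and 0.124 FPKM under elevated CO2. Sobic.009G116400 was the highest on that side, at 1.52 and 1.20 FPKM, and Sobic.009G116300 was listed at 0 in both groups. Levels on this side were thus all well below those of DHN1.

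On the other side the nearest gene, Sobic.009G116766, starts 59071 bp away and had a listed level of 0 under ambient and of 0.0655 FPKM under elevated CO2. The tested neighbours were Sobic.009G116900 and Sobic.009G117000, at places 3 and 4 on this side. Sobic.009G116900 had levels of 5.43 FPKM under ambient and 5.63 FPKM under elevated CO2 (log2 ratio 0.05, p = 0.834 in the authors' deposited table). For Sobic.009G117000 the levels were 3.36 and 3.50 FPKM (log2 ratio 0.06, p = 0.890 in the authors' deposited table). Of the 2 tested neighbours, 0 were called by the authors' Cuffdiff test, beside 9.99% of the 1372 tested genes of chromosome 9. At that share, 0 of 2 is no result about these neighbours. DHN1 was above all 10 neighbours in ambient CO2 and above 9 of them in elevated CO2, where Sobic.009G116900 was higher. Of all listed genes of chromosome 9, 63.6% lay below DHN1 in ambient and 58.0% in elevated CO2. The lower level of DHN1 in elevated CO2 was not shared by either tested neighbour, whose ratios were close to 0. The differences between DHN1 and these neighbours were not tested. The untested neighbours, all at 1.52 FPKM or less, went both ways. Sobic.009G116400, Sobic.009G116600 and Sobic.009G117100 were listed lower in elevated CO2. Sobic.009G116200, Sobic.009G116500, Sobic.009G116766 and Sobic.009G116832 were listed higher.

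**Figure D5:**
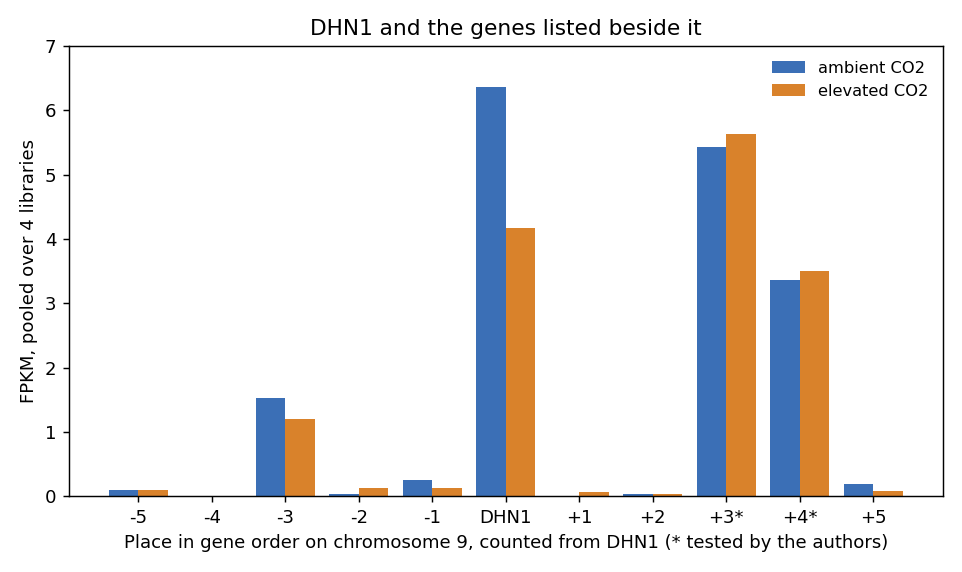
FPKM of DHN1 and of the 5 genes listed on each side of it, in gene order, for ambient (blue) and elevated CO2 (orange); bars are pooled values of 4 libraries, without error bars. DHN1 is the tallest pair in ambient CO2, 8 neighbours are at 1.52 FPKM or less, and the 2 tested neighbours have nearly equal bars.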

How the data were processed

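RNA sequencing covered 8 libraries of prop roots under water deficit, 4 per CO2 group, made with a stranded mRNA kit per the labels' protocols. Reads were handled with Cuffdiff, Cufflinks 2.2.1, HISAT2 and Trimmomatic 0.36, per the submitters' processing notes. Their settings, the genome build and the base from which loci are counted were not stated in what was read here; gene IDs end in version 3.2. The authors deposited 1 pooled FPKM value per gene and group, the log2 ratio of the groups, the score that Cuffdiff names its test statistic, and a p-value with its q-value. Read depth is unknown, so no interval rests on counts. A call is a deposited q under 0.05 in a tested gene; each tested gene reached 2.03 FPKM in its higher group.

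Deposited log2 ratios differed from those recomputed by at most 1.27e-05, and deposited q-values from a Benjamini-Hochberg adjustment by at most 5.25e-07. Ranks, classes of like level, span and ratio, and distances were computed in Python 3.11.15 with pandas 2.3.3. The functions for ranks, distances and the Benjamini-Hochberg adjustment were tested on simulated data, and the classes were not. The gene, the classes and the tests were chosen with earlier results of these data known. Named genes were DHN1, the 5 genes on each side, the 5 of most like pattern and those next in rank; the genes with the smallest called ratios were added after their values were seen. Planned lists of other dehydrin, LEA and abscisic acid genes have no result, since 0 identifiers matched the 32945 genes of the RefSeq table (Sorghum_bicolor_NCBIv3). No sequence of DHN1 was at hand. Alternatives were other scalings, pseudocounts, thresholds and gene sets for the ranks.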

Additional observations from a re-analysis of the deposited data

How the results depend on the processing

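DHN1 was lower in elevated CO2 under each scaling and pseudocount tried. A pseudocount cannot turn the direction of a ratio, and each scaling shifts all genes alike. These settings therefore show how the size of the ratio moves, and say nothing about spread between libraries. The log2 ratio, -0.61 as deposited, was -0.60 with a pseudocount of 0.1 FPKM, -0.51 with 1 FPKM, -0.58 centred on the median of tested genes, -0.52 at equal upper quartiles and -0.44 with FPKM rescaled to sum to 1000000. The alternatives for its call say nothing about stability: a gene at q = 0.456 cannot pass stricter limits, and a minimum of 1 FPKM removed no tested gene.

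Its place depends on the genes counted. It was within the upper 34.1% (ambient) and 38.7% (elevated) of all listed genes, the upper 34.5% and 39.0% without shared loci, 63.8% and 74.1% among genes of at least 1 FPKM, and 71.4% and 81.1% among tested genes, as these sets leave out weakly expressed genes. Over the whole table, 1471 lower and 394 higher genes were called; q under 0.01 left 974 and 185, a minimum absolute log2 ratio of 1 left 1158 and 227, and a minimum of 5 FPKM left 1274 and 354, as these limits admit fewer. Genes of like level were called in 10.6% of cases with a band of 0.5 log2 units, chosen after seeing the data, against 10.5%. No paired analysis was possible because values were pooled over the 4 libraries of a group before deposit, and leaving out a library was not possible either. The limit that depth sets at this level cannot be stated, as no read counts were at hand.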

Other observations

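The deposited test statistic of DHN1 was -0.53, beside a deposited Cuffdiff p of 0.133. Read as a standard normal value, a statistic of that size would give a two-sided p of 0.594. The same reading gave a p above the deposited one in 16267 of the 16277 tested genes that have a statistic. An absolute statistic below 2 was listed for 1666 of the 1865 called genes. The gap was thus general and not particular to DHN1. How the deposited p-values were computed was not examined, so the gap does not show that they are wrong.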
